A study of Mus musculus with 2 samples.

Results

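Retinoic acid synthesis and response were read from 9 genes: Aldh1a1, Aldh1a2, Aldh1a3, Dhrs3, Crabp1, Crabp2, Rarb, Rarg and Cyp26b1. They were taken by symbol from the 27827 genes named on a whole mouse Agilent array, where 15 probes carry these symbols. The RNA came from prostaspheres, spheres that prostate epithelial cells form in matrigel, here with dihydrotestosterone, and was hybridized to 2 arrays of 1 slide with 2 RNAs on each. The genotype comparison paired wild-type cells (Cy5) with ER-Sox9flox/flox cells (Cy3), both given tamoxifen (TAM). The treatment comparison paired ER-Sox9flox/flox cells given vehicle (Cy5) with the same kind of cells given TAM (Cy3). ER-Sox9flox/flox cells, which the labels write as ERCre+/+Sox9flox/flox, carry 2 floxed alleles of Sox9 and a Cre that TAM activates, and all 4 RNAs have the genetic background C57/Bl6J. Per the methods this Cre is expressed from the Rosa26 locus, so it is not restricted to a cell type. All spheres were grown for 6 days before TAM (5 µM) or vehicle was given for 6 more days. The labels name the urogenital sinus at 16 dpc as the source of the epithelium, whereas the methods describe spheres from adult prostates. The titles number the 4 RNAs separately but do not say how many cultures or animals they came from. The p-values therefore cannot be taken to measure a spread between animals. They rest on the spread between the 2 arrays, which may hold technical variation as well as the difference between the 2 comparisons. The main test, limma, also draws on the spread of all tested probes.

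Retinol (vitamin A) is oxidized to retinal, and the retinaldehyde dehydrogenases Aldh1a1, Aldh1a2 and Aldh1a3 oxidize retinal to retinoic acid. Retinoic acid binds the nuclear receptors of the Rar family, which sit on response elements in DNA with an Rxr partner and switch target genes on. Rarb, Dhrs3 and genes of the Cyp26 family are themselves well known targets, and Cyp26 enzymes then break retinoic acid down. In the developing prostate, retinoic acid comes from both mesenchyme and epithelium and acts on the budding of the urogenital sinus.

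The response element of the Rarb promoter is shown because it is the textbook case of how a retinoic acid target is read. The 250 bases before the start of Rarb (RefSeq, GRCm38.p6, chr14:16575477-16575726, minus strand) are printed 5′ to 3′, with capitals marking a DR5 element, which is a direct repeat of receptor hexamers 5 bases apart.
Rarb upstream: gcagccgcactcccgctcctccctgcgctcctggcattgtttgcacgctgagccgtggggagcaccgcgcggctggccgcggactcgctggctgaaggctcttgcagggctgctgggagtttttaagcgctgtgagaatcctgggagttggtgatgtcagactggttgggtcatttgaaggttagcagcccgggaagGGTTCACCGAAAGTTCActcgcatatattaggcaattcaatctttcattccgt
The element lies 53 to 37 bases before the start. The hexamer was taken as AGGTCA, in the form AGTTCA, in the form GGGTCA or in the form GGTTCA, on both strands. In 300-base windows (250 before to 50 after each start) the DR5 was found in 32 of 32851 mouse promoters (0.0974%). Of the 9 genes, 7 had a promoter in the RefSeq table, 11 promoters in all, and among those Rarb alone held it. A repeat with 2 bases between hexamers was in 88 promoters (0.268%) and in none of the 11. The single hexamer AGGTCA, which a DR5 can contain, was in 16.3% of all promoters and in 1 of the 11, of Rarg. The letters ACAAAG and ACAATG, which Sox proteins can bind, were in 18.7% and 12.6% of all promoters, and each was in 1 of the 11, of Aldh1a1 and Rarb. A match describes these letters only.

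Probes of 60 bases read each gene. For Rarb, Rarg and Crabp1, 1 probe each is shown, picked as lying in coding sequence. Each has a reading frame without a stop codon, but that does not establish coding sequence, and gene models were not checked. The Rarb and Rarg probes shown are not the brightest ones, from which these genes are read below. The Crabp1 probe is the only probe of its gene. Coordinates of probes here and below are those of the array annotation, mm9.
Rarb probe: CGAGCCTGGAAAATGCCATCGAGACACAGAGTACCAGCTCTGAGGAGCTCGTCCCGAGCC
Rarg probe: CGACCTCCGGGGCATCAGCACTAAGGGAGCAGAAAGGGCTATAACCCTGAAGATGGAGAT
Crabp1 probe: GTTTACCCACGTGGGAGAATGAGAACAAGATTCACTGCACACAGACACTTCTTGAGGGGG
The whole of each probe matters, so all letters are in capitals. The Rarb probe (chr14:17381032-17407740, minus strand) belongs to a record of the RAR-beta 4 isoform and spans 26709 genomic bases, so it crosses at least 1 intron. The Rarg probe (chr15:102066621-102069261, minus strand) spans 2641 bases and does so too. The Crabp1 probe (chr9:54616192-54616251) lies within 1 stretch of genome.

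All log2 ratios are Sox9-expressing RNA (Cy5) over Sox9-deleted RNA (Cy3), with the 2 arrays as replicates (n = 2). Brightness is the normalized intensity of a probe in 1 RNA. It includes a constant of 50 added after background correction, which shrinks the ratios of dim probes. The median brightness of negative control spots was between 86.5 and 88.7 in the 4 RNAs. Mean log2 ratios were tested against 0 with limma and Benjamini-Hochberg adjustment over the 22731 probes that were well above background on both arrays in Cy5 or on both in Cy3. No array had the dyes swapped, so dye bias of a probe and an effect of Sox9 cannot be told apart. In the genotype comparison mouse line is confounded with Sox9, and in the treatment comparison exposure to TAM.

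Sox9, the deleted gene, was read by 3 probes on chromosome 11. Its brightest probe had a brightness of 1634 in wild-type cells and 253 in the Sox9-deleted cells beside them, and of 1198 with vehicle and 232 with TAM. Its log2 ratios were 2.69 and 2.37, averaging 2.53 ± 0.23 (SD over both arrays; limma adjusted p = 0.0627). The second probe had a mean of 1.22 ± 0.07, and the most distal one, not well above background in wild-type cells, a mean of -1.11 ± 0.16. The labels' source names put the word SOX9 on the Cy5 RNAs and Ctrl on the Cy3 RNAs. They were set aside, and if SOX9 there meant the deleted gene, every sign given here would turn. The titles and treatments, which were used, put the brightest Sox9 probe higher in the RNA called Sox9-expressing. They did so too for the basal keratins Krt5 (2.13 and 1.91) and Krt14 (2.07 and 1.86). The paper reports expression of both keratins as dependent on Sox9, which is the direction used here. That report comes from this same profiling, so it is no separate check. The paper also states that gene expression was checked by RT-PCR. The genotype label reads Sox9 null for both RNAs of the treatment array. Its vehicle RNA was called Sox9-expressing from the treatment label, and the reading of every ratio of that array depends on this. On each of the 3 Sox9 probes the brightness of the vehicle RNA lay nearer to the wild-type RNA than to either Sox9-deleted RNA. The vehicle and wild-type RNAs also shared the dye Cy5.

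All 15 probes of the 9 genes were well above background in all 4 RNAs and were tested. After adjustment 0 of the 15 had a limma p under 0.05, against 2 of all 22731 probes (0.0088%). Without adjustment, 1 of the 15 had a limma p under 0.05, a probe of Cyp26b1, against 17.5% of all probes. The methods' t-test called 0 after adjustment and 2 without. By size, 0 of the 15 were at least 2-fold different in the same direction on both arrays, against 95 of all probes (0.418%). On the genotype array alone 1 of the 15 passed 2-fold (1.31% of all probes), and on the treatment array alone 1 passed it (1.68%). Of the 15, 5 were above 0 on both arrays (34.5% of all probes), 6 were below 0 on both (32.6%) and 4 pointed in opposite directions (32.9%). Those 4 were all below 0 in the genotype comparison and above 0 in the treatment comparison, as were 17.9% of all probes. Over the brightest probes of the 9 genes the median of the mean log2 ratio was -0.10, and over all 15123 tested genes it was 0.00. These shares are near those of all probes, so they set the 9 genes apart in no direction.

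**Figure D1:**
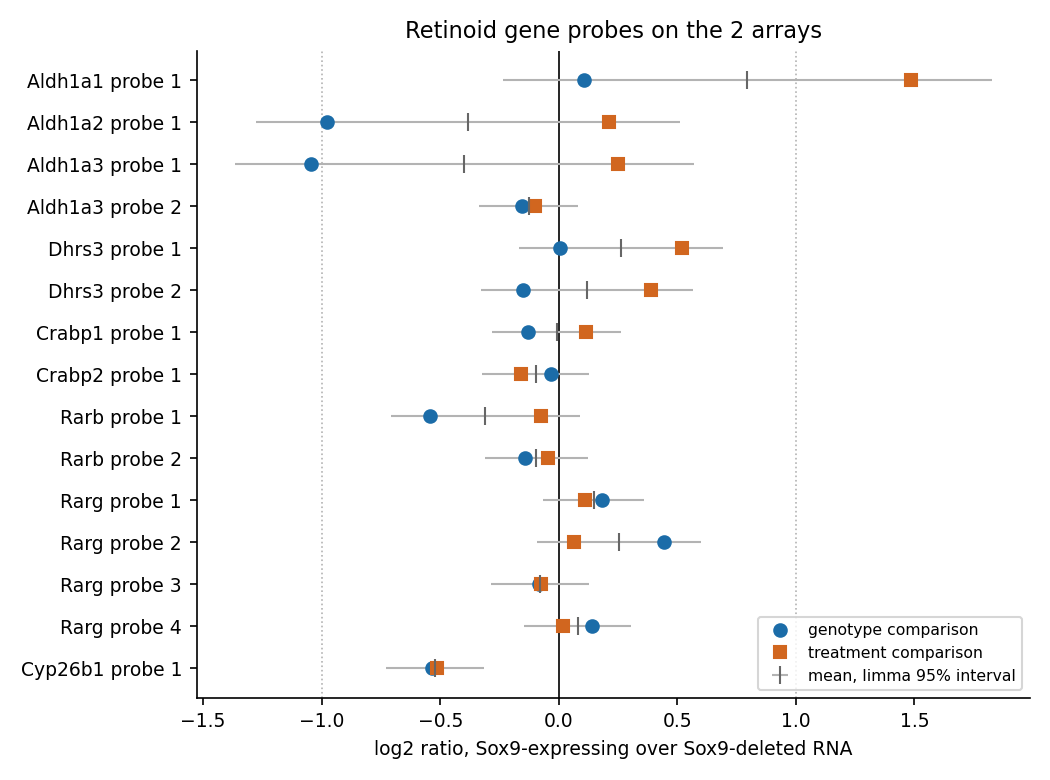
Log2 ratios (Sox9-expressing over Sox9-deleted RNA, x axis) of the 15 probes of the 9 genes, with the genotype comparison as circles, the treatment comparison as squares, and the mean of the 2 arrays with its limma 95% interval as a tick and line; dotted lines mark 2-fold. Aldh1a1 at 1.49 in the treatment comparison and Aldh1a3 probe 1 at -1.04 in the genotype comparison are the points past 2-fold, and the Cyp26b1 points lie together at -0.53 and -0.51.

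Among the synthesis enzymes, the brightest probe of each of the 3 Aldh1a genes had unlike log2 ratios on the 2 arrays. Aldh1a1 (NM_013467, chr19:20717764-20717823) had a brightness of 670 in wild-type cells with TAM, 623 in the Sox9-deleted cells of that array, 1995 in ER-Sox9flox/flox cells with vehicle and 713 in the Sox9-deleted cells of that array. The vehicle RNA alone stood high, while the wild-type RNA lay with both Sox9-deleted RNAs. The log2 ratio was thus 0.10 in the genotype comparison (1.08-fold) and 1.49 in the treatment comparison (2.80-fold), a mean of 0.80 ± 0.98 (SD, n = 2) with a 95% interval from -0.24 to 1.83 and a limma adjusted p of 0.359. The mean was smaller than the spread between arrays. In the treatment comparison 0.480% of tested probes had a higher log2 ratio. With median centring in place of loess, Aldh1a1 had a mean of 1.09 and passed the threshold (limma adjusted p = 0.00542), as did 522 of all tested probes; over the alternatives that p lay between this value and 0.477.

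Aldh1a2, the main retinoic acid enzyme of the embryo and of mesenchyme, went another way (NM_009022, chr9:71143931-71143990). Its brightness was 502 in wild-type cells, 989 in the Sox9-deleted cells beside them, 1019 with vehicle and 881 with TAM. Here the wild-type RNA alone stood low. Log2 ratios were -0.98 (1.97-fold lower) and 0.21 (1.16-fold higher), a mean of -0.38 ± 0.84 (limma adjusted p = 0.568). Aldh1a3, the form known from epithelium, was also lowest in wild-type cells on its brightest probe (NM_053080, chr7:73535785-73535844). That brightness was 3778 in wild-type cells, 7794 in the Sox9-deleted cells beside them, 6814 with vehicle and 5733 with TAM, so the highest RNA was the Sox9-deleted one of the genotype array and not the vehicle one. Its log2 ratios of -1.04 (2.06-fold lower) and 0.25 (1.19-fold higher) gave a mean of -0.40 ± 0.92 (limma adjusted p = 0.586). The other Aldh1a3 probe (AK086764, chr7:73553907-73553966) was dim, at 176 to 217, with log2 ratios of -0.15 and -0.10 and a mean of -0.13 ± 0.04. The probes of this gene thus differed in size and, in the treatment comparison, in direction. For neither gene did the mean of the brightest probe exceed its spread between arrays.

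Dhrs3 reduces retinal back to retinol and so lowers the supply for the enzymes above. On its brighter probe (NM_011303, chr4:144517350-144517409) the brightness was 4272 in wild-type cells, 4259 in the Sox9-deleted cells beside them, 5604 with vehicle and 3903 with TAM. As for Aldh1a1, the vehicle RNA was the highest and the RNAs of the genotype array lay together. Log2 ratios were 0.00 and 0.52, a mean of 0.26 ± 0.37 (limma adjusted p = 0.436). A neighboring probe gave -0.15 and 0.39, a mean of 0.12 ± 0.38.

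**Figure D2:**
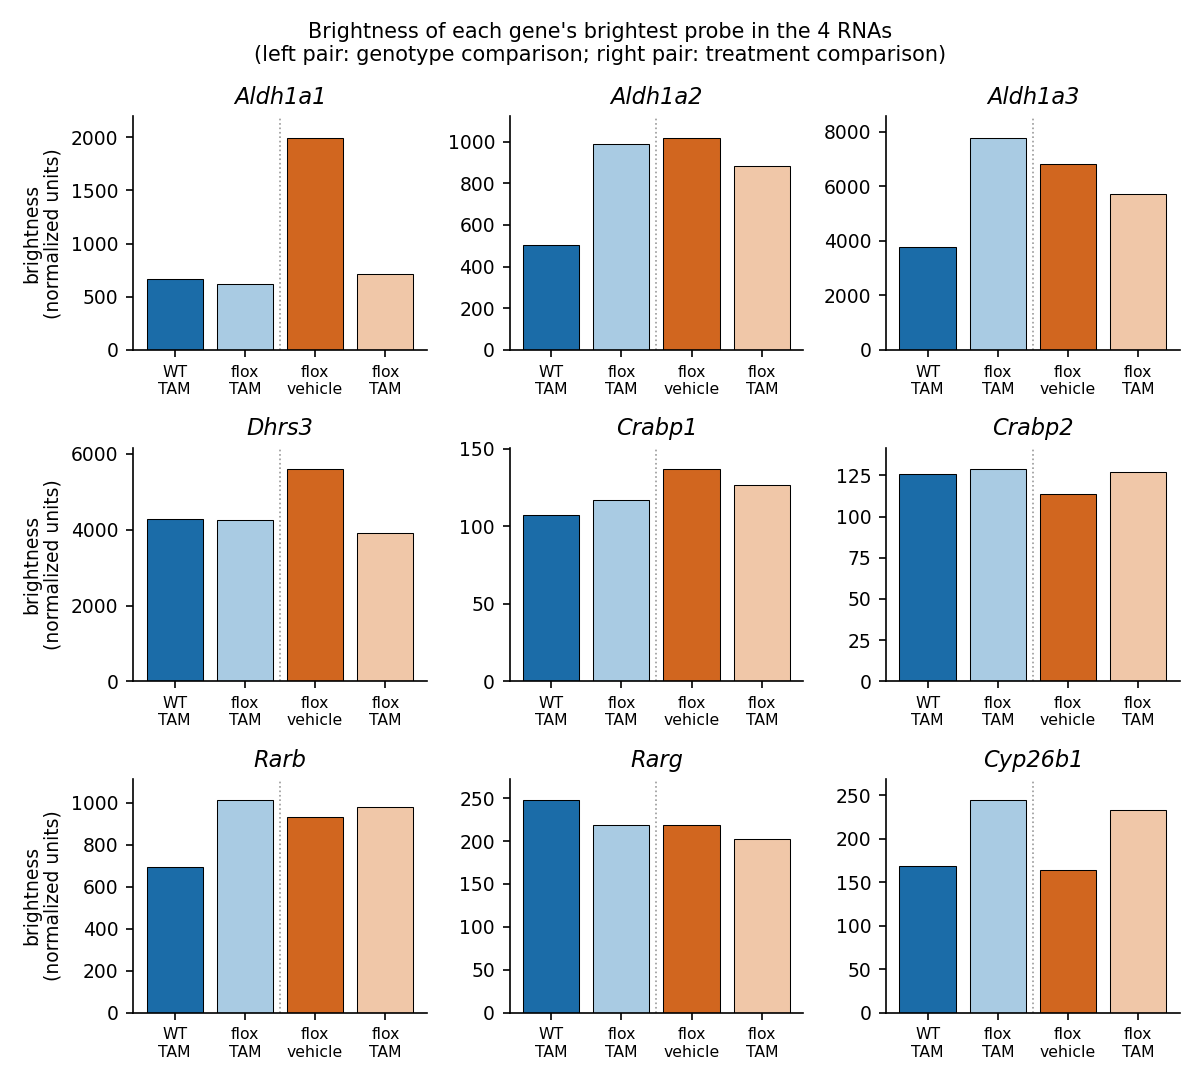
Brightness (normalized intensity, linear axes from 0, not to be compared between panels) of the brightest probe of each of the 9 genes in the 4 RNAs, with 1 bar for 1 RNA and no error bar because each RNA was measured once; flox stands for ER-Sox9flox/flox. Aldh1a1 is high with vehicle at 1995, Aldh1a2 and Aldh1a3 are low in wild-type cells at 502 and 3778, and Cyp26b1 is lower in both Sox9-expressing RNAs, at 168 and 163, than in both Sox9-deleted RNAs.

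Crabp1 and Crabp2 carry retinoic acid within the cell, Crabp2 toward its receptors. Both were near the negative control spots. Crabp1 had a brightness of 107 in wild-type cells, 117 in the Sox9-deleted cells beside them, 137 with vehicle and 127 with TAM, and Crabp2 had 126, 129, 114 and 127 in the same order. Their mean log2 ratios were -0.01 ± 0.17 (limma adjusted p = 0.968) and -0.10 ± 0.09 (limma adjusted p = 0.565). The 95% intervals, from -0.28 to 0.26 for Crabp1 and from -0.32 to 0.13 for Crabp2, bound these ratios as shrunk by the constant and not the change in RNA.

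Rarb encodes a retinoic acid receptor and is itself switched on through the DR5 element shown above. Its brightest probe (NM_011243, chr14:17263511-17263570) had a brightness of 695 in wild-type cells, 1013 in the Sox9-deleted cells beside them, 932 with vehicle and 982 with TAM. The wild-type RNA was the lowest and the other RNAs lay together, as for Aldh1a2. This probe was printed in 10 spots on each array, and their log2 ratios had an SD of 0.04 on the genotype array and 0.03 on the treatment array. The difference between its log2 ratios, -0.54 and -0.08, was larger than this spread between spots, which does not hold the spread between cultures. Its mean was -0.31 ± 0.33 (limma adjusted p = 0.357). The probe of the RAR-beta 4 record, at 124 to 137, had log2 ratios of -0.14 and -0.05.

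Rarg encodes the Rar form most abundant in stratified epithelia. Its 4 probes were dim, between 168 and 247 in all RNAs. The brightest (M32070, chr15:102072411-102072470) had a brightness of 247 in wild-type cells, 218 in the Sox9-deleted cells beside them, 219 with vehicle and 202 with TAM. Log2 ratios were 0.18 and 0.11, a mean of 0.15 ± 0.05 (limma adjusted p = 0.392). A second probe of that record gave 0.45 and 0.06, a mean of 0.25 ± 0.27, and the intron-crossing probe shown above gave 0.14 and 0.02. The probe farthest toward the 3′ end gave -0.08 on each array. The probes thus differed in sign, and the Rarg values with the larger size were from the record of the RAR gamma 3 form.

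Cyp26b1, which degrades retinoic acid, was the gene whose arrays lay closest together in relation to its mean (NM_175475, chr6:84521952-84522011). Its brightness was 168 in wild-type cells, 244 in the Sox9-deleted cells beside them, 163 with vehicle and 233 with TAM. Both Sox9-expressing RNAs were lower than both Sox9-deleted RNAs. The log2 ratios were -0.53 (1.45-fold lower) and -0.51 (1.43-fold lower), a mean of -0.52 ± 0.02, larger in size than the spread between arrays. The limma 95% interval was from -0.73 to -0.32. Its standard error of 0.0724 came mostly from the spread of all tested probes, since the 2 values of this probe lay so close. The unadjusted limma p of Cyp26b1 was 0.00243 and the adjusted p 0.125, so this gene was not called. Among tested probes, 4.78% had a mean log2 ratio of larger size. The probe is dim: with the scanner software's own processed signals its mean was -0.98, and over the alternatives the limma adjusted p lay between 0.0927 and 0.712. Cyp26a1, of the same family, was at 93.5 to 95.5 in the 4 RNAs and was not tested, since it was not well above background.

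The RNAs were also set side by side across the arrays, since the same dye held the same kind of RNA on each. Between the Sox9-deleted RNAs the log2 ratio (genotype array over treatment array) of the 9 genes lay between -0.19 for Aldh1a1 and 0.44 for Aldh1a3. Between the Sox9-expressing RNAs (wild-type with TAM over ER-Sox9flox/flox with vehicle) it lay between -1.57 for Aldh1a1 and 0.18 for Rarg. The median size was 0.11 for the Sox9-deleted and 0.39 for the Sox9-expressing RNAs over the 9 genes, and 0.07 and 0.13 over all tested probes. The wild-type and vehicle RNAs, which differ in mouse line and in TAM, were thus further apart for these genes than the Sox9-deleted RNAs. No test of this was possible with 1 RNA of each kind on an array, and its levels rest on normalization between arrays.

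Markers of other cells differed between the arrays as well. All 11 stromal genes tested, among them Col1a1, Acta2 and Vim, were well above background in all 4 RNAs. Of these, 11 were below 0 in the genotype comparison and 10 above 0 in the treatment comparison, Dcn being the exception, with median log2 ratios of -0.72 and 0.60. Their summed brightness was 37985 in wild-type cells, 64421 in the Sox9-deleted cells beside them, 96747 with vehicle and 58614 with TAM. The wild-type RNA was thus the lowest and the vehicle RNA the highest, and Aldh1a2 and Crabp1 had these ranks too. For Aldh1a2 the vehicle RNA, at 1019, was barely above the Sox9-deleted RNA of the genotype array, at 989. Crabp1 was dim, at 107 to 137, near the negative control spots. On their brightest probes Aldh1a3 and Rarb were also lowest in wild-type cells, and Aldh1a1 and Dhrs3 were also highest with vehicle. The 7 epithelial markers summed to 387627, 215607, 320315 and 261499 in the same order, a sum carried by the basal keratins Krt5 and Krt14. Without that pair, left out after the values were seen, the other 5 summed to 150185, 160091, 119468 and 207033, so the direction turned on both arrays. This sum was carried by Krt8 and Krt18, at 82279 and 57088 in wild-type cells, so its turn is not one of the epithelial markers in general. Like Krt5 and Krt14, the basal factor Trp63 (1.65 and 1.55) was above 0 on both arrays, as was Epcam (0.46 and 0.37). Cdh1 (-0.31 and -0.32) and the luminal keratin Krt18 (-0.28 and -1.01) were below 0 on both, and the luminal keratin Krt8 had 0.01 and -0.74. Of 5 immune markers 2 were tested, Cd68 and Cd14, summing to 1824, 3607, 2816 and 3125, while Ptprc, Emr1 and Cd3e were not well above background. The part of these cells in the values of the 9 genes was not tested. In bulk RNA, fewer cells of a type and less RNA in each cell cannot be told apart.

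**Figure D3:**
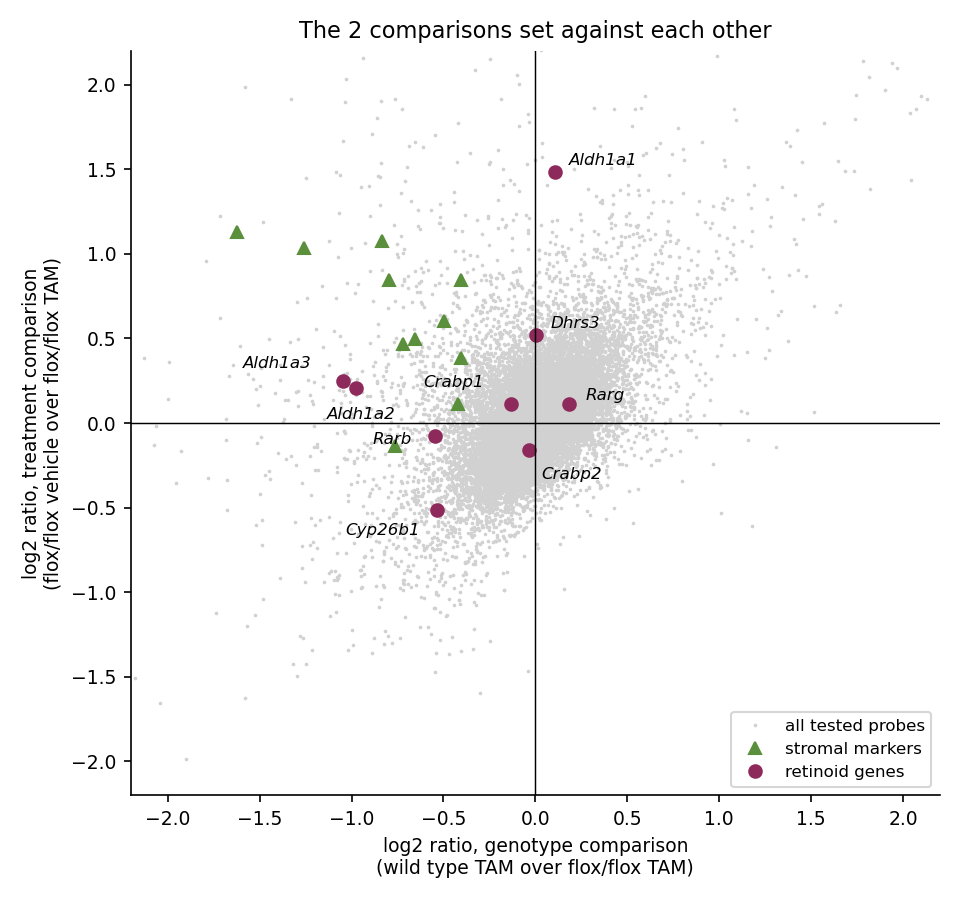
Log2 ratio in the genotype comparison (x axis) against that in the treatment comparison (y axis) for all 22731 tested probes (gray), the 11 stromal markers (triangles) and the brightest probe of each of the 9 genes (circles); 44 probes, none of these 9 genes, lie outside the axes. The stromal markers lie left of 0, 10 of 11 also above 0, Aldh1a2 and Aldh1a3 lie left of 0 and slightly above it, Aldh1a1 lies high near x of 0, and Cyp26b1 lies below 0 on both axes.

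The rest of the pathway was read from lists of 50 genes, of which 48 were on the array and 31 were tested. Of the 31, 14 were above 0 on both arrays, 7 were below 0 on both and 10 were opposite, against 33.9%, 33.7% and 32.4% of all 15123 tested genes. limma called 0 of the 31 after adjustment (0.0132% of all tested genes) and 4 at an unadjusted p under 0.05 (19.5%), and the median of the mean log2 ratio was 0.09. Adh1, which oxidizes retinol to retinal, had a brightness of 2463 in wild-type cells, 1664 in the Sox9-deleted cells beside them, 3069 with vehicle and 1430 with TAM. Both Sox9-expressing RNAs were higher than both Sox9-deleted RNAs. Its log2 ratios, each past 0.5, were 0.57 and 1.10, a mean of 0.83 ± 0.38 (limma adjusted p = 0.163), and its second tested probe gave 0.66 ± 0.44.

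The list for oxidation or reduction of retinol and retinal had 10 tested genes, Adh1 and Aldh1a7 among them. Whether each acts on these substrates was not tested. Of the 10, 3 were above 0 on both arrays, 4 below and 3 opposite. All 6 receptor coregulators were tested, with 4 above 0 on both arrays, and of the 4 tested receptors and carriers 3 were (33.9% of all tested genes). The values were small, with medians of the mean log2 ratio of 0.11 and 0.09. Among 7 tested response genes 5 were opposite (32.4% of all tested genes), and their medians were -0.11 (genotype) and 0.32 (treatment). Named after their values were seen, these include Rarres2 at -1.16 and 0.45, Tgm2 at -0.43 and 0.32, Nr2f2 at -0.24 and 0.54, and Meis2 at -0.11 and 0.35. These are the brightest probes, and dimmer tested probes of the same genes were mixed. The other Rarres2 probe gave -1.15 and 0.28. For Tgm2 they gave -0.49 and -0.02, and -0.36 and 0.08. For Nr2f2 they gave -0.0001 and 0.07, and -0.02 and 0.12. For Meis2 they gave -0.17 and 0.38, and, turned around, 0.05 and -0.08. Aldh1a7, a close relative of Aldh1a1 also named after its values were seen, had the split of Aldh1a1, at -0.09 and 1.37. Whether the probes of these paralogs detect each other's RNA is uncertain. The probe sequences match at 21 of 51 bases at best when laid side by side without gaps. That sets probe against probe and not against the other gene's transcript, so it cannot decide the question.

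**Figure D4:**
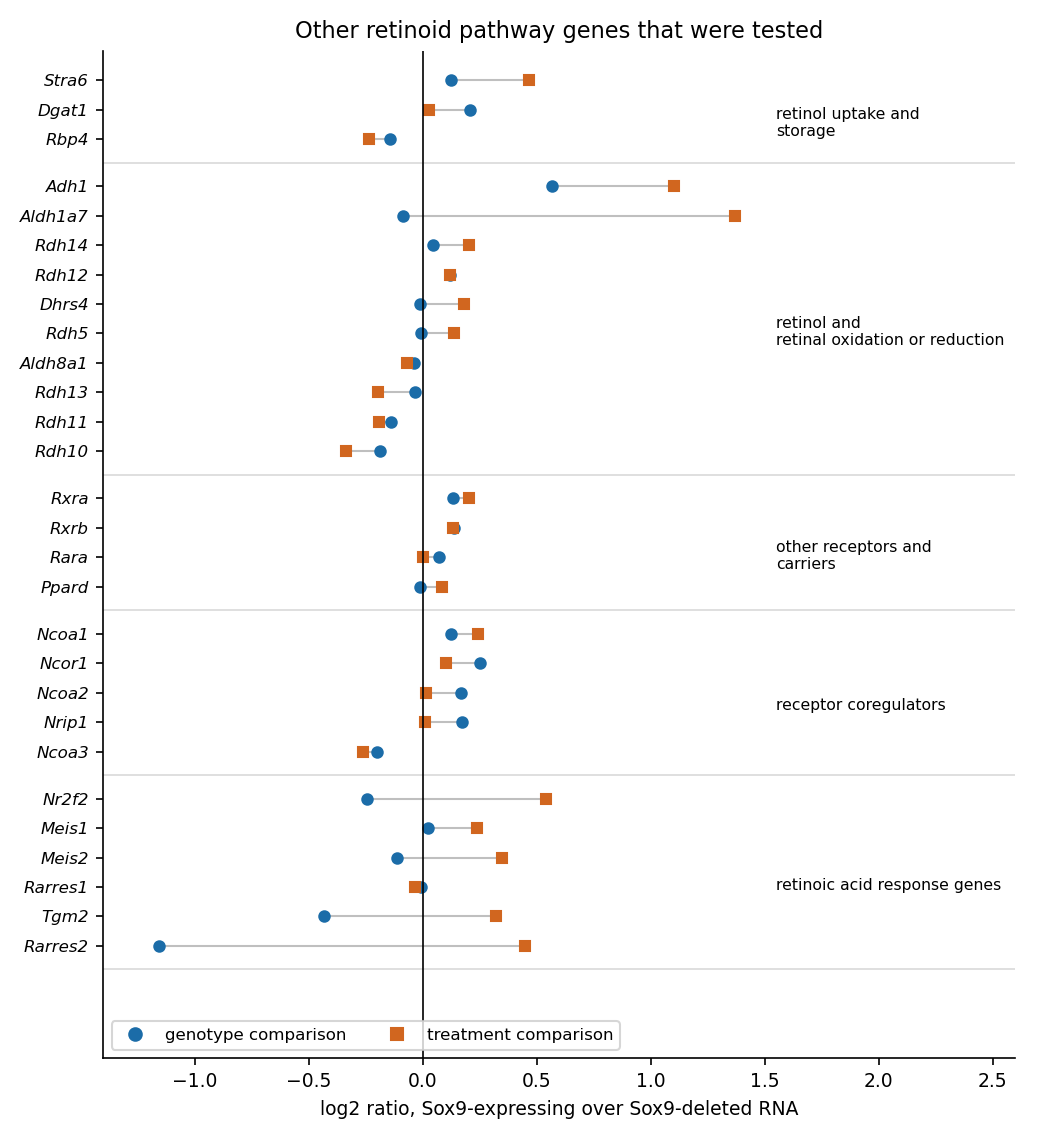
Log2 ratios (Sox9-expressing over Sox9-deleted RNA) of 28 of the 31 other pathway genes that were tested, by list, with the genotype comparison as circles and the treatment comparison as squares, 1 value for 1 array. Adh1 has both points at 0.57 or above, while Aldh1a7, Rarres2, Tgm2, Nr2f2 and Meis2 have points on either side of 0.

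The genes nearest to Aldh1a1 in their pair of log2 ratios, by Euclidean distance among 15123 genes and over 2 arrays, were 1190002F15Rik at 0.06 and 1.41, Arg1 at 0.21 and 1.50, Cxcl12 at 0.04 and 1.57, Igfbp2 at 0.00 and 1.56, and Lrrn3 at -0.05 and 1.53. Their distances lay between 0.0871 and 0.158.

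**Figure D5:**
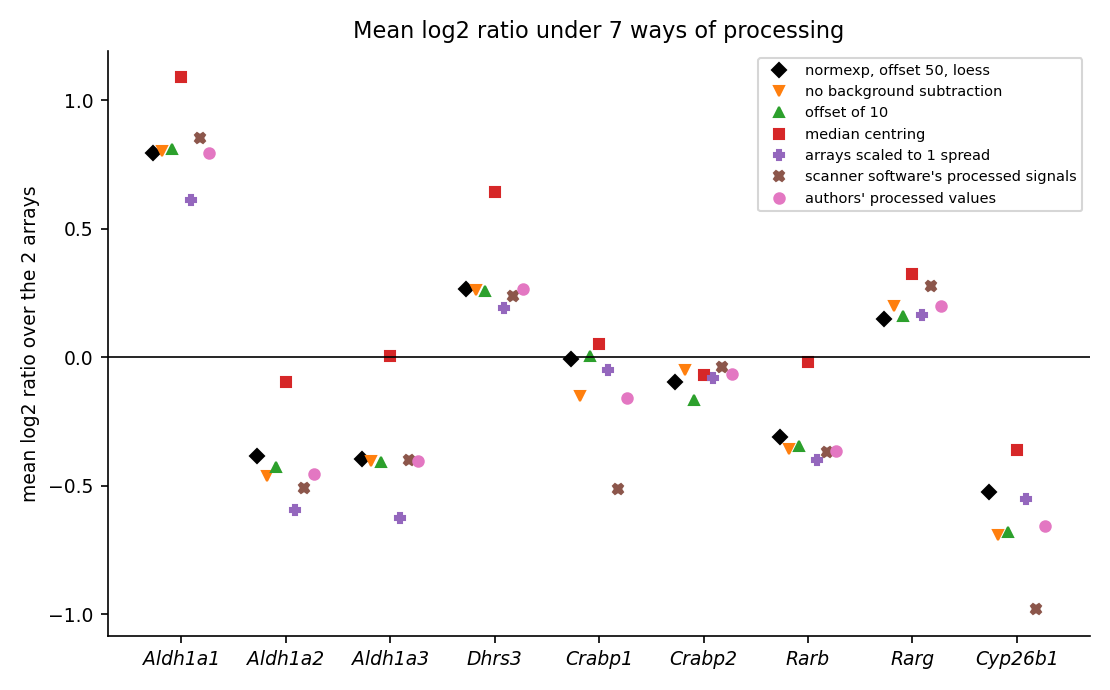
Mean log2 ratio over the 2 arrays (y axis) of the brightest probe of each of the 9 genes under 7 ways of processing the same arrays, the diamond being the values given in the text. Median centring (squares) lies above the diamond for each of the 9 genes, and Cyp26b1 stays below 0 in all 7, between -0.98 and -0.36.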

How the data were processed

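Agilent arrays with a pair of dyes (2 arrays, 4 RNAs, 250 ng of total RNA each, 1 scan) were analysed. Groups were taken from titles, treatments and dyes in the labels, and from the genotype label for the genotype array only, since on the treatment array it reads Sox9 null for both RNAs. The authors deposited scanner output, in which Agilent Feature Extraction 10.5.1.1 gave spot mean intensities, local background medians and, from processed signals, the log10 ratio of Cy5 over Cy3. They also deposited a table of processed log2 ratios. Its scale was read from the values: on spots with processed signals above 500 it rose by 3.121 and 3.14 for 1 unit of log10 ratio (r = 0.983 and 0.987 across spots), so it has the same direction, and its columns have medians of -0.00989 and -0.00344. The labels name limma without a version, and the steps behind that table are not given in the sources used here.

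Background was corrected with normexp and an offset of 50 in limma 3.58.1 (R 4.3.3), followed by loess within each array with the 1639 control spots of 45018 at weight 0. Outlier spots (126 and 130) were dropped and the spots of each of 41174 probes averaged. Brightness used Aquantile normalization between arrays. Tested probes were well above background in 1 dye, Cy5 or Cy3, on both arrays, 22731 in all. The test was lmFit and eBayes, 2-sided (residual df 1, prior df 2.77, prior SD 0.119). The number of arrays limits the precision, and 0 spots were saturated. The code was tested on simulated data. The brightest probe stands for a gene. Genes named are the 9 genes and Sox9 with every probe, pathway genes past 0.5 in log2 size on each array with 1 sign, and the 5 genes nearest to the gene with the largest mean. Some genes of the lists are not reported here. The genes, lists and tests were chosen with earlier results of these data known. Alternatives changed the background correction, normalization, starting values, filter, replicates, test and probe rule. Python 3.11.15 with pandas 2.3.3, numpy 2.4.6 and matplotlib 3.10.9 was used for motifs and plots. Whether probes lie in exons or UTRs of mm9 gene models was not analysed here.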

Additional observations from a re-analysis of the deposited data

Results flagged for a closer look

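Aldh1a2, Aldh1a3 and Crabp1 were flagged because the log2 ratios of their brightest probes pointed in opposite directions on the 2 arrays. They were below 0 in the genotype comparison and above 0 in the treatment comparison. The other, dim Aldh1a3 probe was below 0 on both arrays. These are 3 of the 9 genes, and 32.4% of all 15123 tested genes were also opposite, so the share is near that of all genes. Crabp1 was dim, and the sign of its mean depends on the processing. The treatment comparison minus the genotype comparison was 1.19 for Aldh1a2, 1.29 for Aldh1a3 on its brightest probe and 0.244 for Crabp1, on the log2 scale. Each comparison had 1 array, so these differences were not tested. Among all tested probes 1.20% had a difference of larger size than Aldh1a2, 1.02% than Aldh1a3 and 24.1% than Crabp1.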

How the results depend on the processing

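Leaving out background subtraction, an offset of 10, scaling the arrays to 1 spread, the scanner software's signals, the authors' table, either filter on dim probes and the methods' t-test each left 0 of the 15 probes called by adjusted p. Median centring in place of loess, which left the treatment array with a median log2 ratio of 0.38 over tested probes, called 1, the probe of Aldh1a1 (1.09, limma adjusted p = 0.00542), among 522 probes. The cause was not tested. The count below 0 on both arrays was then 2 and not 6, and with the scanner software's signals the count above 0 on both arrays was 3 and not 5. Signs turned with median centring for Crabp1 (0.0502), Aldh1a3 (0.0036 and 0.0223 on its probes) and Rarg (0.0695 on its 3′ probe), and with an offset of 10 for Crabp1 (0.00445). With 1 array left out there is no test: the log2 ratio ran from -0.98 to 0.21 for Aldh1a2, from -1.04 to 0.25 for Aldh1a3, from -0.13 to 0.11 for Crabp1 and from -0.15 to 0.39 for the second Dhrs3 probe, and the 2-fold count was 1 and 1, the count above 0 was 9 and 5, and the count below 0 was 6 and 10. Of all tested probes, limma called 68 in the authors' table and 0 after each of the other changes of background or scale except median centring, and the 2-fold rule on both arrays found 64 to 600. Each array is itself 1 pair of RNAs, so the tests on its log2 ratios were already paired by array. The groups share no other numbers, so no further pairing was possible. Crabp1, Crabp2, Rarg and Cyp26b1 were dim, which limits what their ratios show.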

Other observations

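Other pathway genes, chosen after their values were seen, are given as values. Rdh10, which oxidizes retinol in the embryo, had log2 ratios of -0.19 and -0.33 in the genotype and treatment comparisons, averaging -0.26 ± 0.10 (SD over both arrays; limma adjusted p = 0.251). Stra6, the membrane receptor for retinol-binding protein, had 0.12 and 0.46, a mean of 0.29 ± 0.24 (limma adjusted p = 0.309).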
